A study of Homo sapiens with 7 samples.

Results

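Of the 19336 RNA polymerase II (Pol II) peaks on chromosomes 1 to 22 of BJAB cells, 5501 (28.4%, 95% Wilson interval 27.8% to 29.1%) were overlapped by both SPT5 and TRIM28 peaks and by no OGA or O-GlcNAc peak. These SPT5-TRIM28 Pol II peaks were chosen by the overlap of the deposited peak lists, with 1 bp or more counting as an overlap. Their number and the presence or absence of each factor therefore restate the choice. The same lists gave the heights, widths and summit positions below, which are described without a test. BJAB is an established line of human B cells that the labels trace to a Burkitt's lymphoma; they give its passage as multiple and name no treatment. Chromatin immunoprecipitation followed by sequencing (ChIP-seq) was done once for each target: Pol II with the antibody 8WG16, SPT5, TRIM28, the enzyme O-GlcNAcase (OGA, also called NCOAT), and the O-GlcNAc sugar with the antibody RL2. As far as the labels say, all groups were the same untreated line and differed in the antibody alone, with 1 library each. Libraries with mouse and rabbit IgG belong to the series and were not analysed here, and peak lists alone cannot check the cell type against its markers.

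Pol II often stops a short way into a gene before it elongates. SPT5, with SPT4, forms the DSIF complex, which helps to hold Pol II in that pause and stays with it as a positive factor once P-TEFb has phosphorylated it. TRIM28, also named TIF1b or KAP1, is a scaffold protein best known for silencing chromatin to which zinc finger proteins of the KRAB family bring it. It has also been linked to the release of paused Pol II at inducible genes. O-GlcNAc is a single sugar that one enzyme adds to serines and threonines of nuclear proteins and OGA removes. The carboxy-terminal repeats of Pol II and SPT5 itself are among the proteins known to carry it. The title of the series places OGA beside SPT5 and TIF1b at elongation. The peaks described here are the Pol II sites at which both SPT5 and TRIM28 were found and neither OGA nor the sugar gave a peak.

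The choice ran as follows. A SPT5 peak overlapped 18462 Pol II peaks (95.5%), and a TRIM28 peak overlapped 60.5%. Both did so at 11518 Pol II peaks (59.6%). An O-GlcNAc peak lay on 40.4% of all Pol II peaks and an OGA peak on 6.11%. Of the 11518 peaks with SPT5 and TRIM28, 4910 were left out for O-GlcNAc alone, 558 for OGA alone and 549 for OGA and O-GlcNAc together. The absence of a peak means that no region of that list passed the authors' threshold there. The lists held 2503 OGA and 8988 O-GlcNAc peaks on these chromosomes against 54885 SPT5 and 43998 TRIM28 peaks, and the depth of each library is unknown.

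Few peaks sat within 50 bp of the edge of the choice. TRIM28 overlapped by 50 bp or less at 53 of the 5501 SPT5-TRIM28 peaks (0.963%), and the smallest overlap was 1 bp, at chromosome 6, 122792391 to 122792601. There the Pol II fold enrichment was 3.19, that of SPT5 4.30 and that of TRIM28 3.66. The next overlaps were 2 bp at chromosome 10, 69523381 to 69523638, and 4 bp at chromosome 15, 76442521 to 76443322. Just outside lay Pol II peaks with SPT5 and a TRIM28 peak that did not touch, 1 bp away at chromosome 15, 67167490 to 67167699, and at chromosome 19, 8226986 to 8227209, and 2 bp away at chromosome 14, 77422068 to 77422804. Their Pol II fold enrichments were 2.50, 2.67 and 3.69. On the side of the sugar, an O-GlcNAc overlap of 1 bp removed the Pol II peak at chromosome 1, 26662720 to 26662978. Overlaps of 2 bp removed those at chromosome 9, 116163816 to 116164042, and chromosome 19, 506344 to 507103. An OGA or O-GlcNAc peak lay within 50 bp of 40 SPT5-TRIM28 peaks (0.727%) without touching them.

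The SPT5-TRIM28 peaks leaned towards the lower Pol II peaks, with a median between those of peaks with SPT5 alone and of peaks with O-GlcNAc. Fold enrichment is the authors' own value for the ratio of a peak to background. The sources used here do not say what that background was, so values were compared within 1 list at a time. The lowest SPT5-TRIM28 peak had a Pol II fold enrichment of 1.64, the median was 4.46 (95% interval of the median 4.37 to 4.53) and the highest was 22.8. Over all Pol II peaks the median was 4.89, and 43.8% of the SPT5-TRIM28 peaks lay above it. The median was 3.54 (3.49 to 3.59) at the 4600 Pol II peaks with SPT5 and none of the other factors. It was 5.49 (5.39 to 5.60) at the 2282 with SPT5 and O-GlcNAc and neither TRIM28 nor OGA, and 6.89 (6.79 to 6.99) at the 4910 with SPT5, TRIM28 and O-GlcNAc and no OGA. The intervals of these 4 medians did not overlap. Intervals here and below cover counting error only, and neighbouring peaks are not independent.

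**Figure D1:**
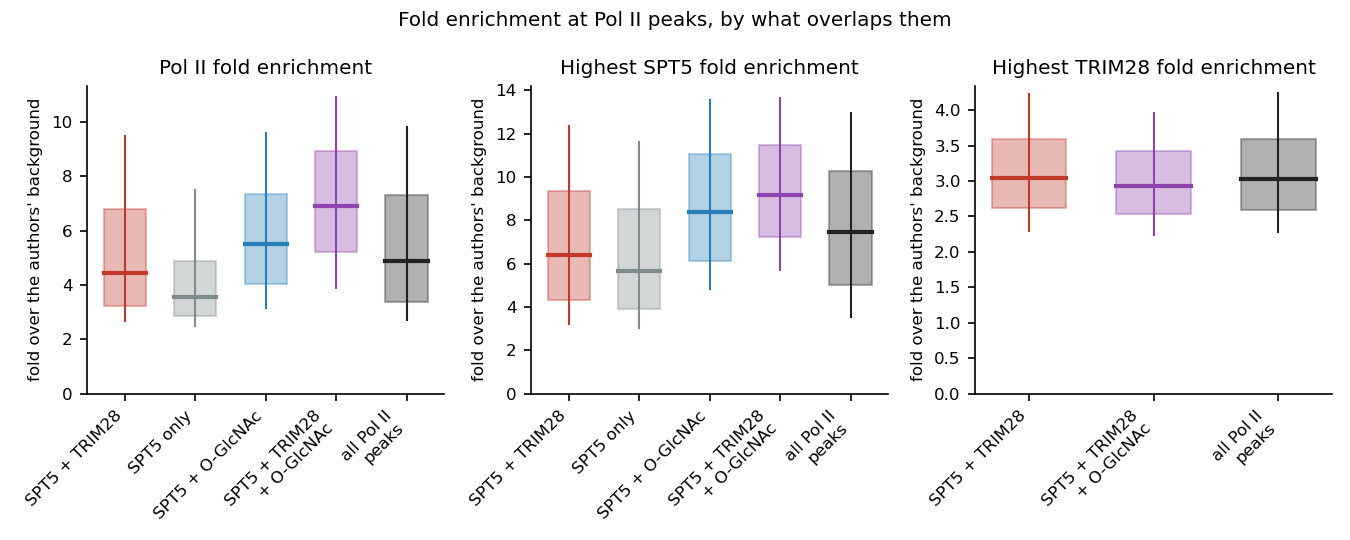
Fold enrichment over the authors' background of the Pol II peak (left), of the highest overlapping SPT5 peak (middle) and of the highest overlapping TRIM28 peak (right), for Pol II peaks grouped by the factors that overlap them; thick lines are medians, boxes the interquartile range and thin lines the 10th to 90th percentiles. Pol II and SPT5 medians of the SPT5-TRIM28 peaks (4.46 and 6.42) lie between those of the SPT5-only and the O-GlcNAc groups, while the TRIM28 medians (3.05 and 2.93) lie close together.

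The SPT5-TRIM28 peaks were found in every decile of the Pol II list by height. They made up 33.2% (31.1% to 35.3%) of the lowest decile of Pol II peaks by fold enrichment, 30.3% of the fifth and 24.9% (23.05% to 26.9%) of the highest. From the lowest to the highest, peaks with SPT5 alone went from 45.5% to 11.1%, and peaks with SPT5, TRIM28 and O-GlcNAc from 4.50% to 43.3%. Peaks with SPT5 and O-GlcNAc without TRIM28 went from 5.02% to 10.5%, with 17.1% in the seventh decile. In the highest decile, where Pol II fold enrichment ran from 9.81 to 27.2, the list still held 482 SPT5-TRIM28 peaks without a peak of OGA or the sugar.

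**Figure D2:**
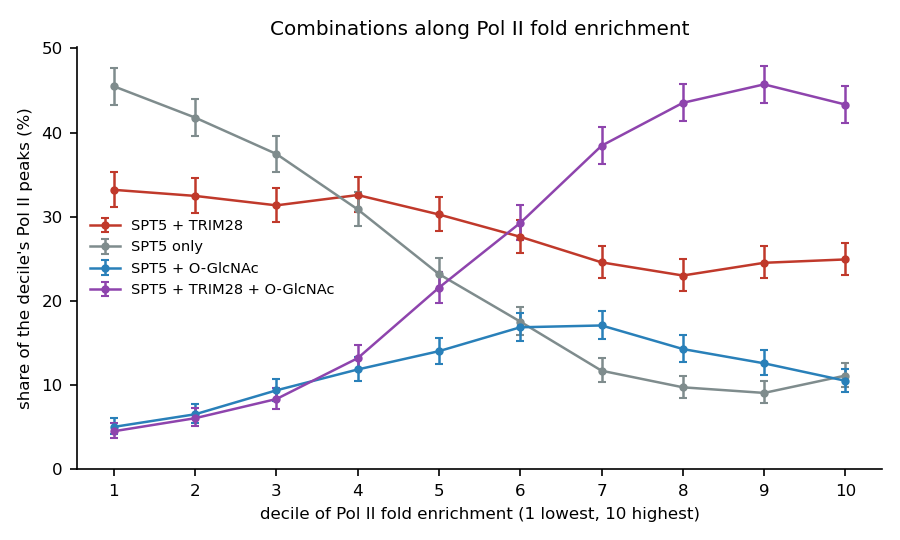
Share of Pol II peaks in each decile of Pol II fold enrichment that carried each combination of factors, with 95% Wilson intervals as bars. The SPT5-TRIM28 share goes from 33.2% to 24.9% across the deciles, while the share with O-GlcNAc added goes from 4.50% to 43.3%.

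As at Pol II peaks in general, SPT5 was mostly above the median of its own list at these sites, and TRIM28 mostly below. The highest overlapping SPT5 peak had a fold enrichment of 1.75 at the lowest site, a median of 6.42 (6.26 to 6.55) and 28.01 at the highest. The median of all SPT5 peaks was 3.30, and 4878 of the 5501 sites (88.7%) lay above it. Over all 18462 Pol II peaks with SPT5 the median was 7.48, higher than at the SPT5-TRIM28 sites. The 10th percentile over all of them, 3.53, was already above the median of the SPT5 list. For TRIM28 the lowest value was 1.56, the median 3.05 (3.03 to 3.07) and the highest 12.2. The median of all TRIM28 peaks was 3.49, and 28.5% of the sites lay above it. The median was 2.93 (2.90 to 2.95) where O-GlcNAc was also present, and a TRIM28 median of 3.03 was found over all 11689 Pol II peaks with TRIM28. The upper quartile was 3.59 both over all of these and at the SPT5-TRIM28 sites.

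Read from the other lists, the SPT5-TRIM28 sites touched 5205 SPT5 peaks (9.48% of that list) and 5883 TRIM28 peaks (13.4%). Of SPT5 peaks, 2.11% in the lowest decile by fold enrichment touched such a site, against 26.7% in the ninth decile and 25.2% in the highest. Any Pol II peak was touched by 4.57%, 86.4% and 98.6% of the SPT5 peaks in these deciles. Of TRIM28 peaks, the share was 23.05% (21.8% to 24.3%) in the lowest decile and 0.955% (0.707% to 1.29%) in the highest, or 42 of 4400 peaks. Any Pol II peak was touched by 53.3% and 2.07% of the TRIM28 peaks in these deciles, so this fall was found for Pol II peaks of all kinds. The SPT5 slopes differed: the share touching any Pol II peak still rose from the ninth decile to the highest. That of SPT5 peaks touching SPT5-TRIM28 sites did not.

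Across the 5501 sites the heights of Pol II and SPT5 went together, and that of TRIM28 hardly followed either. Pearson's r of Pol II and SPT5 fold enrichment was 0.64 and Spearman's rho 0.62. For Pol II and TRIM28 these were 0.060 and 0.098, and for SPT5 and TRIM28 -0.070 and -0.057. With O-GlcNAc also present, r was 0.59 for Pol II and SPT5 and 0.15 for Pol II and TRIM28. These are descriptions across sites that share 3 libraries and their background. Divided into 4 equal groups (quartile groups) by Pol II fold enrichment, the sites had median SPT5 fold enrichments of 4.32, 5.06, 7.05 and 10.3 from the lowest quartile group to the highest. The TRIM28 medians were 2.91, 3.06, 3.05 and 3.15.

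Most sites carried 1 peak of each factor. A single SPT5 peak overlapped 5446 sites, and a single TRIM28 peak overlapped 5094. At 407 sites (7.40%, 6.74% to 8.12%) 2 or more TRIM28 peaks fell on 1 Pol II peak, against 9.83% of all Pol II peaks with TRIM28 and 11.8% (10.9% to 12.7%) where O-GlcNAc was also present. The Pol II peaks were a median of 507 bp wide (495 to 518 bp), the SPT5 peaks 898 bp and the TRIM28 peaks 366 bp. SPT5 covered the Pol II peak from end to end at 74.2% of sites, against 73.7% of all Pol II peaks with SPT5. TRIM28 covered a median of 66.2% of the Pol II peak, lay wholly inside it at 44.9% of sites and enclosed it at 9.78%. Over all Pol II peaks with TRIM28 the median covered was 62.8%. Of all Pol II peaks with both factors, 52.4% held the whole TRIM28 peak and 7.01% were enclosed by it. With O-GlcNAc added, the Pol II peaks were 696 bp wide, and TRIM28 covered 57.3% of them. Width bears on how easily a peak is overlapped at all, so it is not independent of the choice.

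The summits at the SPT5-TRIM28 sites were placed much as at Pol II peaks in general, with that of SPT5 closer to Pol II than that of TRIM28. The nearest overlapping SPT5 summit was a median of 31 bp away (30 to 33 bp), and at 61.8% of sites it was within 50 bp. Over all Pol II peaks with SPT5 the values were 32 bp and 60.8%. For TRIM28 the median was 95 bp (91 to 99 bp), and 29.6% of sites were within 50 bp, against 106 bp and 28.3% over all Pol II peaks with TRIM28. TRIM28 was the farther of the pair at 3576 sites (65.0%, 63.7% to 66.3%), against 69.0% of all Pol II peaks with both. Its summit fell within the bounds of the Pol II peak at 89.0% of sites (88.1% to 89.8%) and at 89.1% of all Pol II peaks with TRIM28. SPT5 had the longer tail of distances: 638 sites (11.6%) had their SPT5 summit more than 510 bp away, against 141 (2.56%) for TRIM28. The 90th percentile of the SPT5 distance was 639 bp, against 648.9 bp over all Pol II peaks with SPT5. The overlapping SPT5 peaks were also wider (90th percentile 2837 bp, against 667 bp for TRIM28), which leaves room for longer distances.

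**Figure D3:**
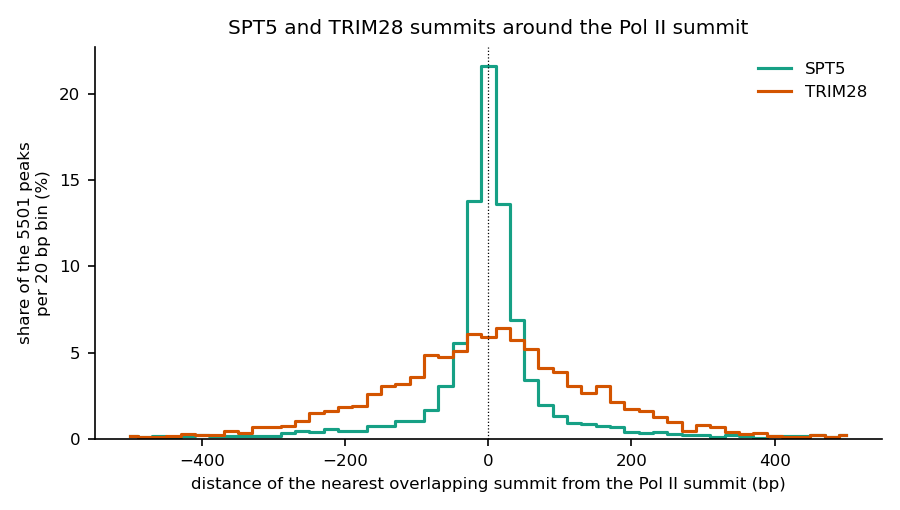
Distance in bp from the Pol II summit (0) to the nearest overlapping SPT5 and TRIM28 summits at the 5501 SPT5-TRIM28 Pol II peaks, as the share of peaks per 20 bp bin. SPT5 forms a narrow peak at 0 (median distance 31 bp), and TRIM28 spreads to both sides (median 95 bp); distances over 510 bp, at 638 peaks for SPT5 and 141 for TRIM28, are not drawn.

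How far SPT5 lay from Pol II changed with the height of the Pol II peak, and at these sites the TRIM28 distance did not follow. From the lowest quartile group of sites by Pol II fold enrichment to the highest, median SPT5 distances were 71, 39, 26 and 16 bp. Those of TRIM28 were 92, 88, 107 and 98 bp. Median Pol II widths over the same quartile groups were 330, 419, 594 and 747 bp, so the SPT5 summit came closer as the peaks became wider. Among Pol II peaks with SPT5 alone the median SPT5 distance was 71 bp (66 to 78 bp), and with TRIM28 and O-GlcNAc it was 22 bp (21 to 23 bp). These combinations differ in Pol II height. Within quartile groups of all Pol II peaks by fold enrichment, from the lowest, it was 69, 35, 25 and 15 bp at SPT5-TRIM28 peaks. With O-GlcNAc added it was 72.5, 35, 24 and 16 bp, and with SPT5 alone 224, 64, 25 and 20 bp. With SPT5 and O-GlcNAc and no TRIM28 it was 78, 38, 25 and 15 bp, so the SPT5 distance fell with height in every combination. Median TRIM28 distances in the same quartile groups were 91, 90, 109 and 95 bp at SPT5-TRIM28 peaks. With O-GlcNAc added they were 135.5, 142, 129 and 100.5 bp, longer in each quartile group and least so in the highest.

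SPT5 and TRIM28 summits lay on the same side of Pol II less often at these sites than over all Pol II peaks with both factors. Of the 5419 sites at which neither summit coincided with that of Pol II, 3360 (62.0%, 60.7% to 63.3%) had both on 1 side, against 65.5% (64.6% to 66.4%) of 11330 over all. The SPT5 summit was the middle of the 3 at 41.2% of these sites, the Pol II summit at 38.0% and the TRIM28 summit at 20.4%. Over all, these shares were 45.8%, 34.5% and 19.3%. Where SPT5 lay 1 to 25 bp from Pol II the same-side share was 57.5%, at 26 to 50 bp it was 63.8%, at 51 to 100 bp it was 72.3% (68.7% to 75.7%), and beyond 100 bp it was 63.8%. The shares over all Pol II peaks with both factors were 60.2%, 69.4%, 74.3% and 69.7% at these distances. The share hardly changed with Pol II height, at 62.6%, 62.2%, 61.3% and 61.9% over the quartile groups of sites.

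The shape of the Pol II peak moved with these sides. At sites where 1 arm of the Pol II peak was at least 100 bp longer than the other, the TRIM28 summit lay towards the longer arm in 68.6% of 2948 cases, and the SPT5 summit in 63.8% of 2917. Over all Pol II peaks with both factors the shares were 70.7% and 67.9%. A longer arm has more room for the summit of an overlapping peak. The choice of overlapping peaks therefore favours the longer arm by itself. The part of the shape in the same-side share was not tested. The side of the longer SPT5 overhang held the TRIM28 summit in 53.7% of 3629 cases (52.1% to 55.4%), against 56.0% over all. With O-GlcNAc present as well, the same-side share was 69.1% (67.8% to 70.4%). Within quartile groups of all Pol II peaks by fold enrichment it was 73.6%, 74.4%, 71.7% and 64.5% there, against 63.5%, 61.9%, 60.9% and 61.3% at the SPT5-TRIM28 peaks. In the highest quartile group the intervals of these shares (62.5% to 66.6% and 58.4% to 64.1%) overlapped, and in the other 3 they did not. The files give no strand, so upstream and downstream cannot be told apart.

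The spacing of the SPT5-TRIM28 peaks was near that of all Pol II peaks. At 5 kb it lay between that of peaks with SPT5 alone and those of the combinations with O-GlcNAc. Another Pol II peak lay within 5 kb of 2780 of them (50.5%, 49.2% to 51.9%), against 48.5% of all Pol II peaks. Within 1 kb the shares were 34.4% (33.1% to 35.6%) and 35.8%. The 5 kb share was 65.3% (63.9% to 66.7%) for peaks with SPT5 alone, 43.4% (41.4% to 45.4%) with SPT5 and O-GlcNAc and 35.6% (34.2% to 36.9%) with SPT5, TRIM28 and O-GlcNAc. The 1 kb shares of these combinations were 49.9%, 35.8% (33.9% to 37.8%) and 27.7%. At 1 kb the SPT5-TRIM28 peaks were therefore not above those with SPT5 and O-GlcNAc. The median gap to the nearest other Pol II peak was 4820 bp at SPT5-TRIM28 peaks and 15355 bp where O-GlcNAc was added. A gap over 1 kb and up to 5 kb was found at 12.7% of all Pol II peaks. It was found at 16.2% (15.2% to 17.2%) of SPT5-TRIM28 and 15.4% of SPT5-only peaks, and at 7.54% of peaks with SPT5 and O-GlcNAc and 7.88% (7.16% to 8.67%) of those with TRIM28 as well.

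**Figure D4:**
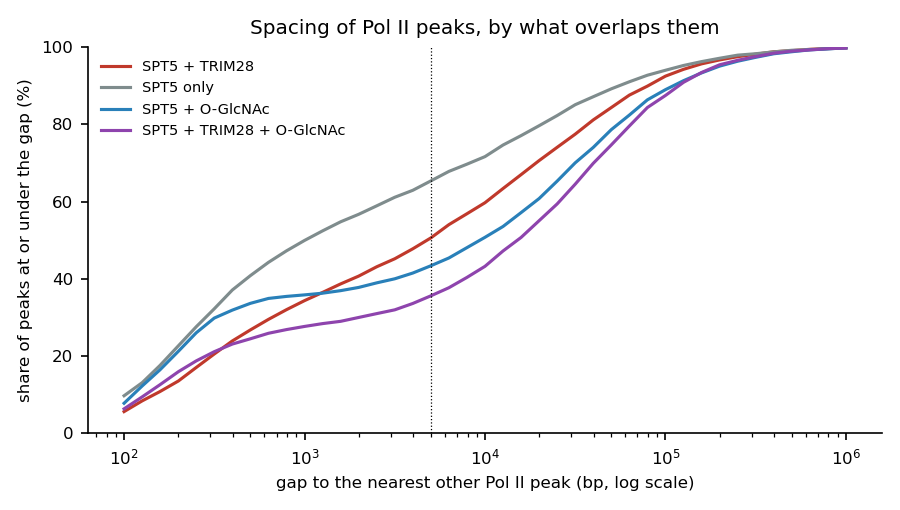
Cumulative share of Pol II peaks whose nearest other Pol II peak lies at or under a given gap (bp, log scale), for 4 combinations of factors; the dotted line marks 5 kb. At 5 kb the SPT5-TRIM28 peaks stand at 50.5%, between SPT5-only peaks (65.3%) and peaks with SPT5, TRIM28 and O-GlcNAc (35.6%).

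Height moved with spacing: in all 4 combinations compared, a close neighbour was most common in the lowest quartile group of Pol II peaks and least common in the highest. Within the 4 quartile groups of all Pol II peaks by fold enrichment, from the lowest, a neighbour within 5 kb was found at 60.3%, 52.9%, 47.2% and 37.7% of SPT5-TRIM28 peaks. With O-GlcNAc added the shares were 54.5%, 41.9%, 35.9% and 30.7%. The intervals were apart in the upper 3 quartile groups and overlapped in the lowest (57.8% to 62.6% and 48.5% to 60.3%). With SPT5 and O-GlcNAc and no TRIM28 the shares were 52.1%, 49.2%, 40.2% and 37.0%. Those intervals overlapped with the ones of the SPT5-TRIM28 peaks in the second and the highest quartile group and were apart in the other two. Against peaks with SPT5 alone, at 76.9%, 64.0%, 49.8% and 41.0%, the intervals were apart in the lower pair of quartile groups and overlapped in the upper pair.

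Close neighbours were of the same combination more often than Pol II peaks with a neighbour in general, and with SPT5 alone about as often. Of the 2780 nearest neighbours within 5 kb, 1185 (42.6%, 40.8% to 44.5%) were SPT5-TRIM28 peaks themselves and 899 (32.3%) carried SPT5 alone. Such a neighbour itself has a Pol II peak within 5 kb, and among the 9379 Pol II peaks of that kind these combinations made up 29.6% and 32.0%. Neighbours with SPT5, TRIM28 and O-GlcNAc numbered 334 (12.0%, 10.9% to 13.3%), against 18.6% of the 9379. At 1300 sites (23.6%) the SPT5 peak also touched another Pol II peak, so these sites share a factor peak and cannot count as separate observations of it. TRIM28 peaks were shared in this way at 214 sites (3.89%). Such sharing was not counted over all Pol II peaks, so it is not read as a trait of these sites.

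Joined across gaps of up to 5 kb, the Pol II peaks formed 4591 groups that held at least 1 SPT5-TRIM28 peak. In 2721 of them it was the only Pol II peak, and 712 groups held 2 or more, 1622 in all. Just 3 groups held 6 or more, and they are named here after their values were seen. The first, at chromosome 16, 81812566 to 81885570, had 47 Pol II peaks in 73005 bp, 12 of them SPT5-TRIM28 peaks. A SPT5 peak in this group, from 81821193 to 81834912 (fold enrichment 3.34), ran under 16 Pol II peaks and 3 TRIM28 peaks and under 0 OGA or O-GlcNAc peaks. The second, at chromosome 7, 101457281 to 101472000, held 6 SPT5-TRIM28 peaks among 9 Pol II peaks. The last, at chromosome 19, 35810063 to 35841793, held 6 among 11. By share of its Pol II peaks the first group was below the 28.4% over all Pol II peaks, and the others were above it. The groups were picked by the number of SPT5-TRIM28 peaks, which a group with more Pol II peaks reaches more easily.

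The distance to OGA and O-GlcNAc peaks was bound up with the choice, which allowed no overlap, and both lists are short. The nearest O-GlcNAc peak was a median of 46024 bp away (43626 to 48139 bp) and the nearest OGA peak 147942 bp away (140319 to 157005 bp). For peaks with SPT5 alone, which also lack both, the medians were 47093 bp (44078 to 51748 bp) and 161298 bp (148177 to 174250 bp). An O-GlcNAc peak lay within 1 kb of 5.85% of the SPT5-TRIM28 peaks and an OGA peak within 1 kb of 2.53%, against 9.65% and 2.83% of the peaks with SPT5 alone. Either one was within 5 kb of 1077 sites (19.6%, 18.6% to 20.6%), against 24.4% (23.2% to 25.6%) of the peaks with SPT5 alone. Sites with the lowest Pol II had such a peak nearby more often, at 10.6%, 9.67%, 6.76% and 4.07% within 1 kb from the lowest quartile group of sites to the highest.

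The share of Pol II peaks in this combination differed by chromosome. It was lowest on chromosome 13 (79 of 366 peaks, 21.6%, 17.7% to 26.1%) and on chromosome 19 (311 of 1393, 22.3%, 20.2% to 24.6%). Chromosome 22 was highest, with 196 of 564 (34.8%, 30.9% to 38.8%). The interval held the share of all chromosomes, 28.4%, on 14 of 22, lay below it on 4 and above it on 4. On chromosome 19, 56.8% of Pol II peaks carried O-GlcNAc and 59.1% TRIM28. On chromosome 13, 39.3% carried O-GlcNAc and 47.0% TRIM28, and 30.3% carried SPT5 alone.

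**Figure D5:**
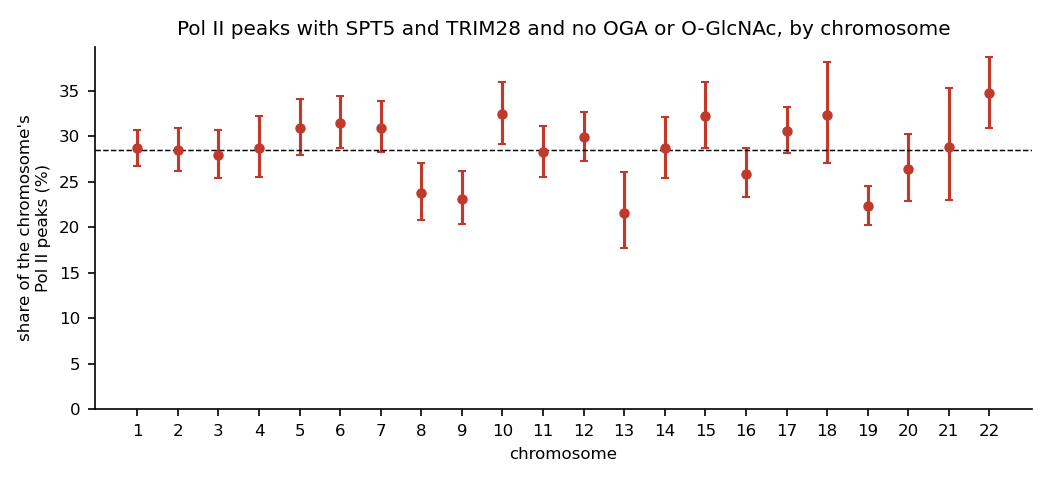
Share of each chromosome's Pol II peaks that were overlapped by SPT5 and TRIM28 and by no OGA or O-GlcNAc peak, with 95% Wilson intervals; the dashed line is the share over chromosomes 1 to 22 (28.4%). Chromosomes 13 and 19 are lowest (21.6% and 22.3%), and chromosome 22 is highest (34.8%).

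Single sites show how the factors were arranged at the extremes. The highest Pol II peak, at chromosome 4, 149363229 to 149364288, reached a fold enrichment of 22.8, with 14.1 for SPT5 and 2.62 for TRIM28. Its SPT5 summit was 11 bp and its TRIM28 summit 452 bp from that of Pol II, and the nearest OGA and O-GlcNAc peaks lay 318624 and 757758 bp away. At the second, at chromosome 1, 16170828 to 16171629, the values were 22.7, 9.05 and 6.37, and the TRIM28 summit lay 12 bp from that of Pol II. This site was in a crowded stretch: 4 Pol II summits, its own included, lay within 20 kb of it, with 7 SPT5 and 5 TRIM28 summits. The same window held 2 OGA and 3 O-GlcNAc summits. The nearest O-GlcNAc peak was 2466 bp off.

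The third, at chromosome 1, 32800530 to 32802063, had 22.3 for Pol II, 22.8 for SPT5 and 3.80 for TRIM28, and its SPT5 peak ran for 8443 bp. The fourth, at chromosome 19, 42055419 to 42056239, had 21.4, 24.9 and 2.25, with SPT5 4 bp and TRIM28 47 bp from the Pol II summit. An OGA peak lay 2571 bp from its edge, and no O-GlcNAc peak was within 20 kb. The fifth, at chromosome 12, 9913207 to 9914206, had 20.8, 21.8 and 2.79. At all 5 the SPT5 summit was 4 to 35 bp from Pol II, while the TRIM28 distance ran from 12 to 452 bp. All 5 also had another Pol II peak within 5 kb.

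The highest SPT5 peak was not at the highest Pol II peak. It overlapped the Pol II peak at chromosome 17, 4243682 to 4244474, with fold enrichments of 28.01 for SPT5, 13.5 for Pol II and 2.94 for TRIM28, and 12 TRIM28 peaks lay within 20 kb. The second by SPT5 was the chromosome 19 site at 42055419. The third, at chromosome 6, 111804081 to 111806067, had 23.7 for SPT5, 13.4 for Pol II and 2.20 for TRIM28, and stood alone: no other peak of any list had its summit within 20 kb.

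The 3 highest TRIM28 peaks at these sites had fold enrichments of 12.2 at chromosome 20, 32366852 to 32367259, 11.5 at chromosome 17, 16256382 to 16257096, and 11.2 at chromosome 3, 129143191 to 129143460. Pol II stood at 3.18, 13.5 and 2.61 there, and SPT5 at 7.23, 13.2 and 2.97. TRIM28 enclosed the whole Pol II peak at all 3, and its summit lay 188, 205 and 24 bp from that of Pol II.

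The widest sites were long domains of Pol II and SPT5 with short TRIM28 peaks inside. The widest, at chromosome 19, 35818895 to 35829361, spanned 10467 bp within a SPT5 peak of 23369 bp and belonged to the last of the 3 groups above. It held 4 TRIM28 peaks, and 16 TRIM28 peaks and no OGA or O-GlcNAc peak lay within 20 kb of its summit. Pol II fold enrichment was 6.91, SPT5 18.5 and the highest TRIM28 3.26, and the nearest TRIM28 summit was 1373 bp from that of Pol II. The next widest, at chromosome 17, 56405041 to 56410395, spanned 5355 bp with a single TRIM28 peak of 504 bp, and had 11.6 for Pol II, 16.3 for SPT5 and 2.50 for TRIM28. The third, on chromosome 8, spanned 5142 bp, with 6.98, 19.0 and 3.49.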

How the data were processed

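Peak lists of 5 ChIP-seq libraries were used as deposited, 1 per target and grouped by the sample titles. The tools Bowtie2 2.1.0, Trimmomatic 0.30 and bcl2fastq 2.17 and the build hg19 are listed per the submitters' processing notes. The peak caller, its control and its cut-off remain not given in the sources used here. In the deposited files the fold enrichment is the authors' ratio to background, beside their −log10 p and −log10 q values, and the smallest −log10 q was 1.30. Scores in the deposited files repeated −log10 q and were not used. Depth is unknown, and intervals cover counting error only.

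Chromosomes 1 to 22 were kept, and overlap meant at least 1 bp. Shares have 95% Wilson intervals and medians order-statistic intervals. Distances between summits run to the nearest summit among overlapping peaks, fold enrichments are those of the highest overlapping peak, and gaps run between peak edges. No test was run, since each target had 1 library and the same lists chose the sites. The selection rule was run separately in bedtools 2.31.1 and gave the same number of sites, 5501, and the code was tested on simulated data with planted overlaps. The sites named were the 5 highest by Pol II, the 3 highest by SPT5 and by TRIM28, the 3 widest, and the 3 nearest each edge of the choice. The alternatives were a stricter threshold, 2 other definitions of overlap, merged peaks, a margin around OGA and O-GlcNAc, and chromosome X. Only the reduction to 1 peak per group was added after seeing the data. The peaks and measures were chosen with earlier results of these data known. The reference tables used here are of GRCh38, another build than that of the files. Genes, start sites and sequences under the peaks were therefore not analysed here. Python 3.11.15, numpy 2.4.6, pandas 2.3.3, scipy 1.17.1 and matplotlib 3.10.9 were used.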

Additional observations from a re-analysis of the deposited data

Results flagged for a closer look

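Chromosomes X and Y were outside the choice of sites and stood out for that reason. The same overlap rule was met by 140 of 553 Pol II peaks on X (25.3%, 95% Wilson interval 21.9% to 29.1%) and by 7 of 19 on Y (36.8%, 19.1% to 59.0%). Both intervals held the share on chromosomes 1 to 22, 28.4%.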

How the results depend on the processing

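The number of SPT5-TRIM28 peaks stayed within 1.5 times of 5501 under all 7 alternatives, from 3989 to 5737, and the same-side share ran from 61.4% to 63.0%. With chromosome X added, the 10 values that have an interval stayed within it, and the number of peaks was 5641. Over all 7 alternatives 38 of 70 such values left theirs. Some of these shifts are fixed by the setting and are marked as by construction. Merging also joins peaks and keeps the highest fold enrichment, which by itself widens peaks and raises fold enrichments. The 2 other definitions of overlap were applied to OGA and O-GlcNAc as well. Pol II peaks that touch an OGA or O-GlcNAc peak could therefore enter, which by itself shortens the gap. The −log10 q cut also drops the weakest peaks of every list by q. The cause of the other shifts was not tested. With a −log10 q of at least 5, 63.2% of the sites were kept, and the values became 5.07 (Pol II fold), 7.04 (SPT5 fold), 3.29 (TRIM28 fold), 580 bp (Pol II width), 26 bp (SPT5 distance), 100 bp (TRIM28 distance), 90.8% (TRIM28 summit inside), 37476 bp (gap to OGA or O-GlcNAc, 28757 bp as reported) and 44.6% (another Pol II peak within 5 kb). An overlap of 50% of the shorter peak gave 4.66 (Pol II fold), 6.68 (SPT5 fold), 90 bp (TRIM28 distance), 91.3% inside, a gap of 23722 bp and 52.4% within 5 kb. Summits within 250 bp gave 4.93 (Pol II fold), 3.03 (TRIM28 fold), by construction shorter distances of 23 bp (SPT5) and 78 bp (TRIM28), 93.0% inside, a gap of 24559 bp and 43.7% within 5 kb. Merging peaks within 500 bp gave 4.76 (Pol II fold), 3.12 (TRIM28 fold), 574.5 bp (Pol II width), 109 bp (TRIM28 distance), 87.7% inside, a gap of 33820 bp and 34.4% within 5 kb, fewer by construction. With no OGA or O-GlcNAc peak within 1 kb, the SPT5 distance was 29 bp, the gap 34673 bp, longer by construction, and the share within 5 kb 47.0%. With 1 peak per group of neighbours, the values were 4.89 (Pol II fold), 533 bp (Pol II width), 27 bp (SPT5 distance), 90.1% inside, a gap of 31122 bp and 40.7% within 5 kb, fewer by construction. No paired analysis was possible because each target had 1 library. With depth unknown, a missing OGA or O-GlcNAc peak cannot be told apart from too few reads.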
